A study of Saccharomyces cerevisiae with 90 samples.

Results

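The mitochondrial ribosomal protein genes of budding yeast (Saccharomyces cerevisiae) were taken as every gene whose single annotated symbol is MRPL or MRPS followed by a number. This rule, which used no measured value, gave 43 of the 5562 genes of a table of 10 h colonies and 42 of the 5560 genes of a table of cells in SC medium, where MRPL15 was not measured. Of the 43, 34 encode proteins of the large subunit (MRPL) and 9 of the small subunit (MRPS). The colony table held 70 arrays in 21 groups, and the SC table held 20 arrays in 10 groups.

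The mitochondrial ribosome translates the few mRNAs of the mitochondrial genome, which in yeast encode core subunits of the respiratory complexes and of the ATP synthase. Its RNAs are made inside the organelle, while nearly all of its proteins are nuclear products that are translated in the cytosol and imported. In yeast these genes are known to be expressed together with those of growth and of cytosolic ribosome assembly, and many of their mRNAs are bound by the Pumilio protein Puf3. By the family names in RefSeq, 21 members belong to protein families shared by ribosomes of all domains of life, 8 to families shared with bacteria, and 14 to mitochondrial ribosomes alone. No member is a chromosomal neighbour of another. Among the neighbours, RSM19 lies next to MRPS12 and MRX14 next to MRPL1, both genes for other mitochondrial ribosomal proteins. Shared transcripts were not tested.

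All colonies came from strain G85. The wild type was grown on synthetic complete dextrose medium, labelled as the yeast form (6 arrays), and on synthetic low-ammonium dextrose medium with uracil and histidine, labelled as the filamentous form (3 arrays), so form and medium cannot be told apart. Deletion strains were also grown on the low-ammonium medium. They lacked TEC1 or CUP9 (tec1::bcKanMX4, cup9::bcKanMX4, 5 arrays each), SFL1, SOK2 or SKN7 (sfl1::bcKanMX4, sok2::bcKanMX4, skn7::bcKanMX4, 3 arrays each) or YAP6 (yap6::NatMX4, 3 arrays), or 2 of these genes (13 strains, 3 arrays each). All 6 genes encode transcription factors. The cells in SC medium were MATa/alpha diploids of other strains. The wild type SR1187 (4 arrays) was homozygous for ura3-52 and carried the plasmid pRS316. In the ira1 strain SR595 (ira1::HIS3/ira1::LEU2) and the ira2 strain SR563 (ira2::HIS3/ira2::LEU2), which also carried ura3-52, leu2::hisG, his3::hisG and pRS316, an inhibitor of Ras was deleted. The ira1RA strain SR954 carried pRS316-IRA1RA, an arginine-to-alanine point mutant of Ira1, in the ira1 deletion. The strains SR453 and SR753 carried a dominant-active (pRS316-RAS2V19) or dominant-negative (pRS316-RAS2A22) RAS2 plasmid in ura3-52 cells. Cells without RAS1, RAS2 and the phosphodiesterase gene PDE2 (ras1::HIS3, ras2delta and pde2::kanR on both copies, with ura3-52, leu2::hisG, his3::hisG and TRP1+/trp1::hisG) were given cyclic AMP (cAMP), the second messenger that Ras controls, at 0, 0.5, 1 or 2 mM. The 0 mM cells were strain SR959 with plasmid pRS315, and those at the other concentrations were strain SR957 with no plasmid listed, so cAMP and strain cannot be told apart against 0 mM. The SC groups held 2 arrays each, except 1 array each at 0.5 and 1 mM. Nothing in the labels says that replicates came from separate cultures, so p-values measure the spread between arrays, which may be technical. The number of arrays limits the precision.

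The deleted genes were checked first. On the log2 scale of the deposited levels, SFL1, SOK2 and SKN7 read lower on every array labelled with their deletion than on any other array (at most 5.83 against at least 6.17 for SFL1, 5.05 against 6.66 for SOK2 and 4.28 against 6.85 for SKN7). YAP6 read 2.32 to 3.07 on the arrays labelled with its deletion and 2.84 to 4.34 on the others. The library labelled tec1 array 1 read 8.68 for TEC1 and 4.07 for CUP9, and the library labelled cup9 array 4 read 4.57 for TEC1 and 8.21 for CUP9, both against their labels. Both stayed in the groups of their labels in all fits and common levels, except where they are said to be left out. CUP9 read 8.04 to 8.38 on all 3 arrays labelled cup9-yap6, so changes there are those of libraries with that label. FLO11, the flocculin of filaments, read 7.96 to 8.74 in the yeast form and 10.09 to 10.94 in the filamentous wild type. In the SC table, the ras2a22 columns held the same number for 27.6% of the probe sets above 1 in both, against 1.44% to 4.9% for other pairs within a group. For 11 members (MRPL3, MRPL4, MRPL13, MRPL20, MRPL24, MRPL31, MRPL38, MRPL39, MRPL49, MRPS8 and MRPS17) the ras2a22 arrays therefore amount to 1 measurement. The fits still entered both as separate arrays, except where 1 of them was left out. The SC wild-type arrays also stood apart in pairs: 23.1% and 21.7% of values were listed at 1 on arrays 1 and 2, against 9.03% and 11% on arrays 3 and 4.

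Most of the 43 genes moved together across the colony groups. For each array, the median over the members of the log2 level minus the gene's mean over 70 arrays was taken as their common level. It was highest in cup9 (0.48 ± 0.17, SD, n = 5), tec1 (0.35 ± 0.19, n = 5), the filamentous wild type (0.31 ± 0.10, n = 3) and tec1-cup9 (0.31 ± 0.27, n = 3). It was lowest in sfl1-yap6 (-0.52 ± 0.17, n = 3), sfl1 (-0.32 ± 0.28, n = 3), sfl1-sok2 (-0.31 ± 0.09, n = 3) and skn7 (-0.29 ± 0.25, n = 3). The yeast-form wild type lay between, at 0.02 ± 0.07 (n = 6), and yap6 stood near it at -0.01 ± 0.07 (n = 3). Neighbouring groups in this order differed by less than the larger of their SDs. Every group below yap6 in the order lacked SFL1 or SKN7, with the exception of cup9-sok2. A list of all other mitochondrial ribosomal protein genes, those with names such as MRP, RSM or IMG, gave almost the same order, with Pearson r = 0.98 and Spearman rho = 0.98 over the 21 group means. The order was not particular to them. Spearman rho was 0.94 for mitochondrial translation factor genes and for genes of cytosolic ribosome biogenesis. It was 0.74 for cytosolic ribosomal protein genes and 0.60 for respiratory chain genes, while lists of marker genes gave negative values, such as -0.54 for FLO11.

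**Figure D1:**
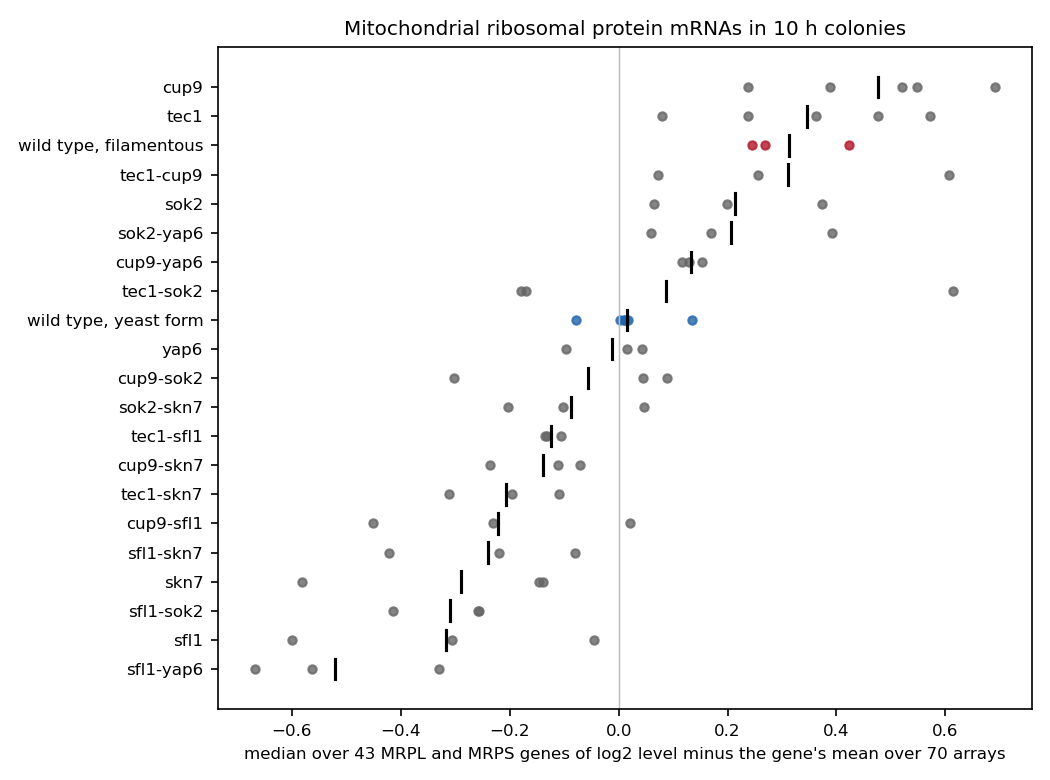
Common level of the 43 MRPL and MRPS genes on each array of the colony table (points; median over the genes of the log2 level minus the gene's mean over 70 arrays), with the group mean as a black bar and the groups ordered by it. The cup9, tec1 and filamentous wild-type arrays lie above 0, and every array of sfl1, skn7, sfl1-sok2 and sfl1-yap6 lies below 0.

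The median correlation between 2 members over the 21 group means was 0.71, against 0.04 for all pairs of genes in the table, and 81% of the 903 member pairs exceeded 0.5, against 14.8% of all pairs. The deviations of single arrays from their group means gave a median of 0.41 for member pairs and 0.01 for all pairs, so members also rose and fell together among arrays of the same strain. These correlations describe groups that share arrays and normalization. MRPL32 (bL32m), MRPL22 (uL22m) and MRPL17 (mL46) followed the common level most closely, with Pearson r of 0.97, 0.97 and 0.96. MRPS12 (uS12m), the protein next to the decoding centre in ribosomes, had the lowest value at -0.20, followed by MRPL19 (uL11m) at 0.43 and MRPL51 (mL43) at 0.44. The widest range of group means was that of MRPS9 (uS9m), 1.78 on the log2 scale, and the narrowest that of MRPL10 (uL15m), 0.62.

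The first comparison asked how the growth form changes expression. In filamentous colonies 16 of the 43 genes rose (37.2%, against 21.6% of all genes) and 1 fell (2.33%, against 23.2% of all genes), by limma with Benjamini-Hochberg adjustment over all genes at an adjusted p under 0.05. The median change was 0.32 on the log2 scale, against 0.05 over all genes, and 34 of the 43 were positive. In colonies, fewer expressing cells and less RNA per cell cannot be told apart.

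MRPL25 (mL59), a mitochondria-specific large-subunit protein, read 8.0, 8.02 and 8.08 on the filamentous arrays and from 6.67 over a median of 7.03 to 7.23 on the yeast-form arrays. The groups did not overlap, and the log2 change was 1.03 ± 0.18 (SE, adjusted p = 8.82e-06, limma). MRPL31 (mL60), also specific to mitochondria, read 6.93, 6.98 and 7.23 against 5.85 to 6.34, again without overlap, for a change of 0.95 ± 0.23 (adjusted p = 0.000909, limma). MRPS8 (uS8m), a small-subunit protein that binds the ribosomal RNA, read 6.43, 6.46 and 6.43 against 5.48 to 5.87 and rose by 0.75 ± 0.19 (adjusted p = 0.00147, limma). MRPL33 (uL30m) rose by 0.76, MRPL38 (uL14m) by 0.72, MRPL49 (bL21m) by 0.67, MRPL44 (mL53) by 0.67 and MRPL39 (bL33m) by 0.58, with adjusted p from 0.00439 to 0.0299 (limma). The other called genes were MRPL36, MRPS28, MRPL32, MRPL17, MRPL50, MRPL35, MRPL13 and MRPS18, at 0.37 to 0.58.

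MRPS12 was the single member called lower. It read 9.03, 8.98 and 9.15 on the filamentous arrays against 9.71 to 9.91 on the yeast-form arrays. The fall was larger than the spread of either group and came to -0.73 ± 0.15 (adjusted p = 9.27e-05, limma). MRPL16 (uL16m, -0.32) and MRPL19 (-0.24) had the next lowest changes and missed the threshold. Rises were called for 5 of the 21 universal members, 5 of the 8 bacterial-type members and 6 of the 14 mitochondria-specific members. Over all genes 21.6% rose, near the share of the universal members, and differences between the classes were not tested. With the replicate number as a block, 26 members were called, 23 higher and 3 lower. Without filamentous array 2, 11 were called, and without filamentous array 3, 8. The shares of all genes in the blocked fit and in these fits are not given, so the counts cannot be read as particular to the members.

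**Figure D2:**
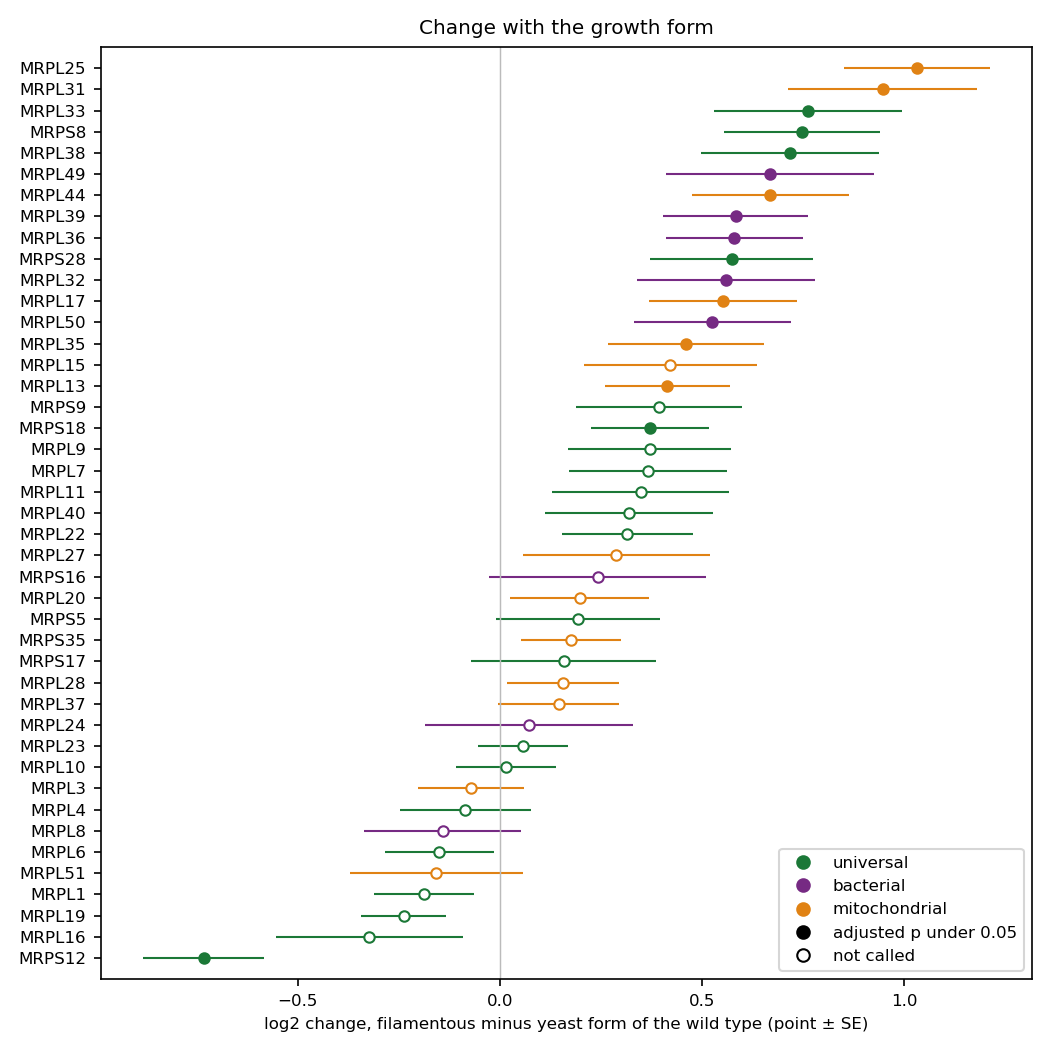
Log2 change of each MRPL and MRPS gene, filamentous minus yeast form of the wild type (point, with the limma SE as a bar), coloured by protein family class and filled where the adjusted p was under 0.05. The 16 filled points on the right run from MRPS18 at 0.37 to MRPL25 at 1.03, and MRPS12 is the single filled point on the left, at -0.73.

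The neighbours of these genes in mitochondrial function did not share one direction. Over all genes 21.6% rose and 23.2% fell. Of the 32 other mitochondrial ribosomal protein genes, 9 rose and 3 fell, with a median of 0.27. RSM10 (1.09), MRP2 (0.86) and MRP49 (0.70) were the largest rises, and RTC6 (-0.68), MRX14 (-0.50) and RSM7 (-0.48) fell. Among 12 mitochondrial translation factors, the ribosome recycling factor gene RRF1 rose (0.71) and the elongation factor gene TUF1 fell (-0.75). In the respiratory chain list, 17 of 35 genes fell and 0 rose, with a median of -0.36, led by SDH4 (-1.22), SDH2 (-1.14) and NDI1 (-1.11). Of 30 ribosome biogenesis genes, which serve the cytosolic ribosome, 18 rose and 0 fell (median 0.67), led by RLP24 (1.53), UTP9 (1.42) and PUF6 (1.38). Cytosolic ribosomal protein genes gave 11 rises and 5 falls among 78 measured, both below the shares of all genes. HAP4, the limiting subunit of the activator of respiratory genes, rose by 1.15 ± 0.27 (adjusted p = 0.000497, limma) and HAP1, the heme-responsive activator, by 0.92 ± 0.27 (adjusted p = 0.00492, limma). HAP2, HAP3, HAP5, PUF3 and SFP1, a regulator of ribosomal genes, had changes between -0.20 and 0.12 that missed the threshold.

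Counts in smaller lists stand beside the 21.6% of all genes that rose and the 23.2% that fell, and were not tested against these shares. One of 14 mitochondrial tRNA synthetase genes rose (AIM10, 0.41), as did 1 of 10 mitoribosome assembly genes (MTG1, 0.51) and 1 of 6 genes for expression of the mitochondrial genome (ABF2, 0.82, which packages mitochondrial DNA). Among 15 translational activators, CBP6 (1.07), CBS1 (0.61) and PET309 (0.60) rose and MSS51 (-0.81), the activator of COX1 translation, fell. In the mitochondrial protein import list of 16, 5 rose, led by MGE1 (0.87), and 4 fell, led by TOM40 (-0.72).

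Each deletion strain was then compared with the filamentous wild type, to ask what each transcription factor contributes to filamentous expression. All these comparisons share the same 3 wild-type arrays. None of the 43 genes was called in tec1, cup9 or sok2 (limma), where 0.126%, 0.342% and 1.17% of all genes were called, while 2, 6 and 4 members had an unadjusted p under 0.05. The tec1 and cup9 groups include the libraries that read against their labels, and leaving out any 1 array still gave 0 calls (limma). The largest changes there were those of MRPL51 in tec1 (0.70 ± 0.22, adjusted p = 0.174), MRPL24 (bL28m) in cup9 (0.84 ± 0.27, adjusted p = 0.143) and MRPL7 (uL5m) in sok2 (-0.70 ± 0.23, adjusted p = 0.126), by limma.

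Loss of SFL1, a repressor of flocculation genes, lowered 27 of the 43 genes (62.8%, against 14.5% of all genes) and raised 0 (10.3% of all genes). The median change was -0.60, against -0.08 over all genes, and 41 members were negative. Of the members that fell, 22 belong to the large and 5 to the small subunit. MRPL31 read 5.81, 6.33 and 5.69 in sfl1, below its 6.93 to 7.23 in the wild type, a change of -1.11 ± 0.27 (adjusted p = 0.00231, limma). MRPS9, a small-subunit protein whose tail reaches the P-site tRNA in ribosomes, read 7.60, 7.21 and 7.43 against 8.47, 8.40 and 8.52 and fell by 1.05 on the log2 scale (adjusted p = 0.00113, limma). In both genes the strain and the wild type did not overlap. MRPL33 (-1.10), MRPL15 (mL57, -1.09) and MRPL49 (-1.08) completed the 5 largest falls. Array 3 carried much of the count: without it 10 members were called, and its median over all genes, centred per gene, was -0.15.

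Without SKN7, a regulator of the oxidative stress response, 22 genes fell (51.2%, against 21% of all genes) and 0 rose (16% of all genes), with a median of -0.58 against -0.05 over all genes. MRPL31 read 5.48, 5.85 and 5.95, all below the wild-type arrays, and fell by 1.29 on the log2 scale (SE 0.27, adjusted p = 0.000688, limma). MRPL17 read 6.21, 6.89 and 6.76 against 7.62, 7.57 and 7.73 and changed by -1.02 ± 0.21 (adjusted p = 0.000688, limma). MRPL15 (-1.04), MRPL32 (-1.04) and MRPL11 (uL10m, -1.04), the base of the ribosomal stalk, fell by similar amounts. Array 1 was the lowest skn7 array for MRPL31 and MRPL17, and without it 9 members were called. Its median over all genes was -0.14.

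In yap6 12 genes fell (27.9%, against 11.1% of all genes) and 1 rose (2.33%, against 12.6%), with a median of -0.31. MRPL15 (-0.91), MRPL49 (-0.91), MRPL31 (-0.81), MRPL32 (-0.69) and MRPS28 (uS15m, -0.66) led the falls, with adjusted p from 0.00461 to 0.0411 (limma). MRPL51 was the gene that rose: it read 7.64, 7.76 and 7.77 in yap6 against 7.18, 6.69 and 7.30, without overlap, for a change of 0.67 ± 0.25 (adjusted p = 0.0421, limma). The count dropped without any of the filamentous arrays 1, 2 or 3 (5, 6 and 2 called) and without yap6 array 1 or 2 (3 and 2 called).

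**Figure D3:**
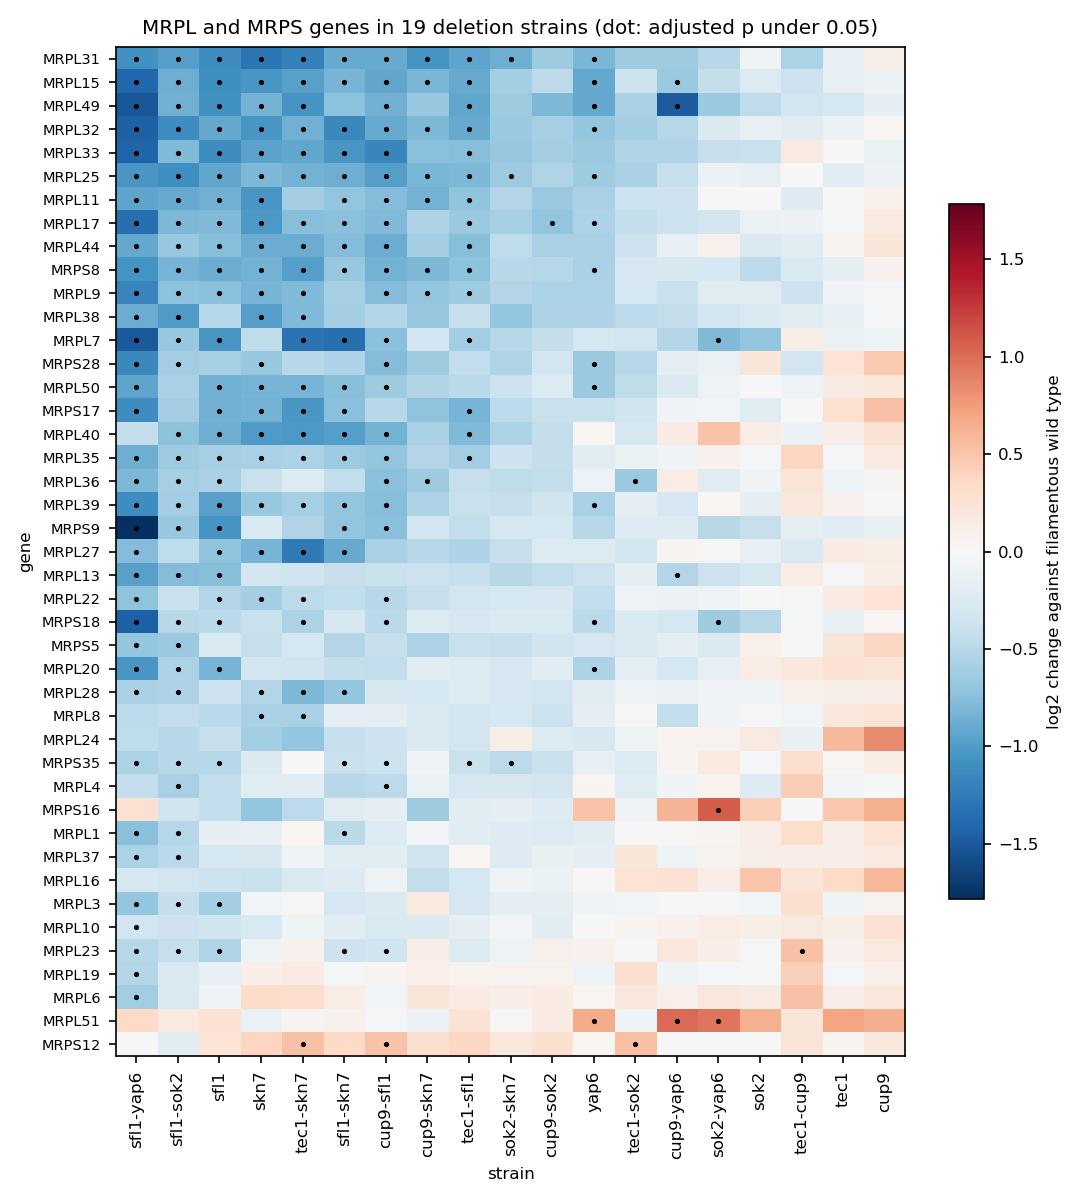
Log2 change of each MRPL and MRPS gene (lines) in each of 19 deletion strains (columns) against the filamentous wild type, with blue for lower and red for higher and a dot where the adjusted p was under 0.05. Strains and genes are ordered by their changes. The columns of sfl1, skn7 and their double deletions are mostly blue, while MRPL51 and MRPS12 at the bottom stay pale or red.

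Among the 32 other mitochondrial ribosomal protein genes, 15 fell in sfl1 (median -0.50), 18 in skn7 (median -0.63, with RTC6 higher at 0.41) and 6 in yap6 (median -0.36, RTC6 higher at 0.76). MRP13, a small-subunit protein, was the largest fall of that list in each, at -1.14, -1.39 and -1.06. Of 12 translation factors, 3, 4 and 2 fell in sfl1, skn7 and yap6. RRF1 was called in all 3 strains (-0.82, -1.13 and -0.79), as was IFM1, an initiation factor gene (-0.57, -0.58 and -0.56). Mitoribosome assembly genes fell in 4, 6 and 4 of 10 cases, with GEP3 at -0.94, -0.80 and -0.85. ABF2 fell in each (-0.81, -0.63 and -0.52). Of 14 mitochondrial tRNA synthetase genes, 5 fell in sfl1, and 1 rose and 1 fell in both skn7 and yap6. Of 15 translational activators, 1 rose and 3 fell in sfl1 and in skn7, and 3 rose and 2 fell in yap6. Respiratory chain genes gave 14 falls and 0 rises of 35 in sfl1, 3 falls and 8 rises in skn7, and 0 falls and 5 rises in yap6. CYC1, cytochrome c, led in sfl1 (-1.26), and SDH4 rose in skn7 (1.07). Ribosome biogenesis genes fell in 15, 21 and 10 of 30 cases. Cytosolic ribosomal protein genes fell in 11, 19 and 3 of 78, and 5 of them rose in skn7 (16% of all genes rose). Over all genes 14.5%, 21% and 11.1% fell in sfl1, skn7 and yap6, and 10.3%, 16% and 12.6% rose.

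HAP4 fell in sfl1 (-1.65 ± 0.31, adjusted p = 0.000123, limma) and yap6 (-1.78 ± 0.31, adjusted p = 1.75e-05, limma). In skn7 its change was -0.25 (adjusted p = 0.546, limma), while HAP2, which encodes a DNA-binding subunit of the same complex, fell (-0.33, adjusted p = 0.0211) and SFP1 rose (0.56, adjusted p = 0.0156). PUF3 was called in none of these 3 strains (limma; -0.55, 0.31 and -0.50).

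The strains that combine deletions allow the effect of SFL1, SKN7 or YAP6 loss to be read without the shared wild-type arrays, by subtracting the strain that keeps the gene from the one that lacks it. Loss of SFL1 lowered 24 members in tec1 (17.4% of all genes fell), 38 in cup9 (34.2%), 17 in sok2 (6.9%) and 18 in yap6 (13.5%). The member medians were -0.51, -0.70, -0.47 and -0.48. In skn7 cells the same loss lowered 1 member, MRPL7 (-0.89, against 1.15% of all genes called lower), with a median of 0.02 and 3 members at an unadjusted p under 0.05.

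SKN7 loss lowered 30 members in tec1 (22.8% of all genes) and raised 1, MRPS12 (17.1% of all genes), and it lowered 29 in cup9 (21.3%), with medians of -0.66 and -0.65. In sok2 cells it gave 0 calls by limma, against 0.27% of all genes in either direction, with a median of -0.31 and 13 members at an unadjusted p under 0.05. In sfl1 cells limma also gave 0 calls, again against 0.27% of all genes, with a median of 0.11 and 3 members at an unadjusted p under 0.05. With YAP6 loss in sfl1 cells 6 of 43 members were called lower, near the share of all genes (13.6%), with a median of -0.20. In sok2 cells 0 were called (limma; 4.01% of all genes in either direction, median -0.02, 1 member at an unadjusted p under 0.05).

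The double deletions were then set against the filamentous wild type, and sfl1-yap6 had the most calls. In it, 35 members fell (81.4%, against 22.7% of all genes), with a median of -0.86 against 0.02 over all genes. MRPS9 read 7.08, 6.84 and 6.12 there against 8.40 to 8.52 in the wild type, a change of -1.78 ± 0.24 (adjusted p = 1.06e-08, limma). MRPL7, which contacts the central protuberance of the large subunit, read 6.58, 6.49 and 6.04 against 7.77, 7.95 and 7.88 and changed by -1.50 ± 0.23 (adjusted p = 1.92e-07, limma). All 3 double-deletion arrays lay below all 3 wild-type arrays for both genes. MRPL49 fell by 1.51 on the log2 scale. Leaving out any array gave 32 to 35 calls. In this strain all 30 ribosome biogenesis genes and 47 of 78 cytosolic ribosomal protein genes also fell.

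Other strains without SFL1 had 30 falls in sfl1-sok2 (12% of all genes), 24 in cup9-sfl1 (21.9%), 21 in sfl1-skn7 (11.3%) and 16 in tec1-sfl1 (8.77%). Their largest changes were those of MRPL32 in sfl1-sok2 (-1.10), MRPL33 in cup9-sfl1 (-1.16), MRPL7 in sfl1-skn7 (-1.34) and MRPL31 in tec1-sfl1 (-0.94). Single arrays decided several of these counts. In sfl1-sok2 they dropped to 5 without its array 1 and to 16 and 11 without filamentous arrays 1 and 3. In cup9-sfl1 11 were called without its array 3, and in sfl1-skn7 6 without its array 1 and 8 without filamentous array 3. In tec1-sfl1 every one of the 6 arrays moved the count when left out, to between 2 and 10. The 3 cup9-sfl1 arrays spanned -0.45 to 0.02 in the common level.

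Strains without SKN7 had 22 falls in tec1-skn7 (14.6% of all genes), 8 in cup9-skn7 (9.56%) and 3 in sok2-skn7 (3.63%). MRPL7 (-1.32), MRPL27 (mL41, -1.26) and MRPL31 (-1.21) were the largest in tec1-skn7, where 17 to 20 calls remained without any 1 array. In cup9-skn7 0 were called (limma) without its array 1 or filamentous array 3, and 3 without filamentous array 1. In sok2-skn7 0 or 1 were called (limma) without its array 1 or 2 or any filamentous array. Other fits gave more calls than these counts. With only the groups compared 17 members were called in cup9-skn7 and 20 in sok2-skn7. A replicate block gave 21 and 23, though by the correlation check the replicate numbers do not pair these arrays. The shares of all genes in these fits are not given. In both strains 38 of 43 members were negative, with medians of -0.50 and -0.40. In the remaining strains the counts were 1 rise in tec1-cup9 (1.42% of all genes), 1 rise and 1 fall in tec1-sok2 (7.59% and 2.43%), 1 fall in cup9-sok2 (5.36%), 1 rise and 3 falls in cup9-yap6 (13.5% and 8.52%) and 2 of each in sok2-yap6 (9.78% and 5.11%). In cup9-sfl1 the single rise, MRPS12, stood against 14.6% of all genes, and in tec1-skn7 against 17.3%. In cup9-sok2 38 of 43 members were negative, with a median of -0.35, and 13 were called with only the groups compared. The block gave 15 there, again with numbers that do not pair the arrays and without the share of all genes. The counts of 1 to 4 in these strains changed when single arrays were left out. The tec1-sok2 arrays were spread widely, from -0.18 to 0.61 in the common level, and without array 1, the highest, 17 members were called.

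Against the filamentous wild type, MRPL15, MRPL25 and MRPL31 were called lower most often, in 11 of the 19 strains each. MRPL16, MRPL24, MRPS16, MRPL51 and MRPS12 were called lower in 0 of them (limma). MRPL51 and MRPS12 were each called higher in 3 strains. Over the group means MRPL51 still followed the common level weakly (Pearson r = 0.44), while MRPS12 did not (-0.20). MRPL51 was called higher in yap6, cup9-yap6 (1.01 ± 0.25, adjusted p = 0.00175, limma) and sok2-yap6 (0.95 ± 0.25, adjusted p = 0.00535, limma). It read 7.87, 8.09 and 8.25 in cup9-yap6 and 8.01, 8.39 and 7.62 in sok2-yap6, all above the 6.69 to 7.30 of the wild type. In sfl1-yap6 it stood at 7.41 ± 0.31 (SD, n = 3). MRPS12 was called higher in tec1-sok2 (0.53), tec1-skn7 (0.53) and cup9-sfl1 (0.51), with adjusted p from 0.0173 to 0.0382 (limma). It read 9.91, 9.63 and 9.22 in tec1-sok2, 9.75, 9.50 and 9.49 in tec1-skn7 and 9.40, 9.48 and 9.81 in cup9-sfl1, all above the 8.98 to 9.15 of the wild type. MRPS16 (bS16m) rose in sok2-yap6 (1.08 ± 0.31, adjusted p = 0.0121, limma), MRPL23 (uL13m) in tec1-cup9 (0.52 ± 0.13, adjusted p = 0.0191, limma).

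For 12 of the doubles the change was set against the sum of the changes in both single deletions. The departure is the double's change minus that sum. In sfl1-skn7 the median sum was -1.17 on the log2 scale, while the median change in the double was -0.55, close to the median in either single (-0.60 and -0.58). The double was less negative than the sum for 38 of 43 members, and 7 departures were called (16.3%, against 5.86% of all genes in that direction), with a median of 0.68 against 0.05 over all genes. MRPL31 read 5.72, 6.53 and 6.19 in the double, 2 of them within and 1 above the 5.48 to 6.33 of both single deletions, and departed by 1.49 ± 0.38 (adjusted p = 0.0176, limma). MRPL15 read 4.52, 4.91 and 4.75 in the double, 4.26 to 4.58 in sfl1 and 4.30 to 4.85 in skn7, and departed by 1.31 ± 0.35 (adjusted p = 0.0203, limma). MRPL11 (1.20), MRPS8 (1.05), MRPL17 (1.05), MRPL9 (uL3m, 0.99) and MRPL39 (0.95) were the others called. The count rested on single arrays: it was 0 without sfl1 array 3, skn7 array 1 or sfl1-skn7 array 2, 2 to 4 without sfl1-skn7 array 3 or filamentous array 1 or 3, and 13 to 19 without sfl1 array 2, skn7 array 2 or sfl1-skn7 array 1. It was 11 with the replicate number as a block, which by the correlation check does not pair the arrays of this comparison. The share of all genes with the block is not given. MRPL7 was an exception in size, with -1.34 in the double.

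**Figure D4:**
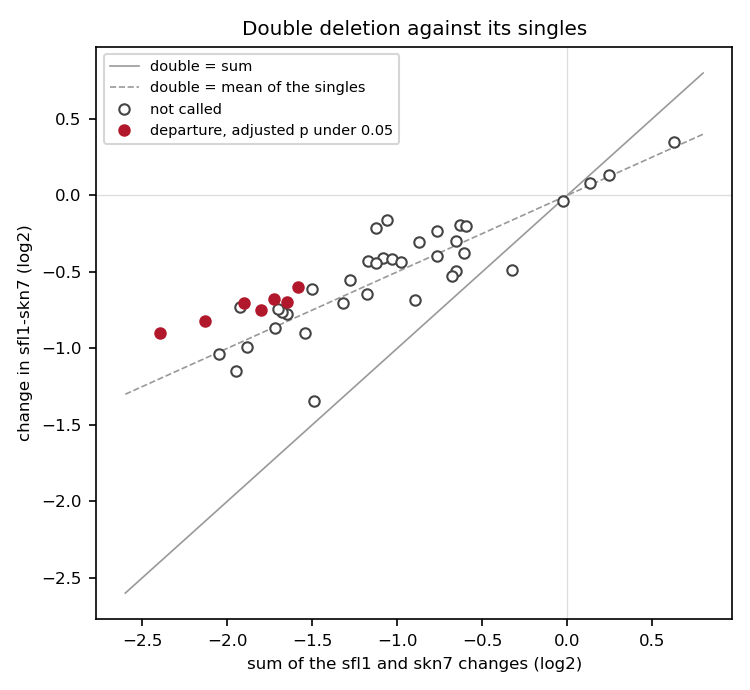
Log2 change of each MRPL and MRPS gene in the sfl1-skn7 double deletion (vertical) against the sum of its changes in the sfl1 and skn7 single deletions (horizontal), with filled points for the 7 called departures. Most points lie above the solid line, where double and sum are equal, and near the dashed line, where the double equals the mean of the singles.

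In the tec1-cup9 double 3 departures were called, all negative (6.98%, against 2.36% of all genes). MRPL24 read 6.22, 7.16 and 6.25 there, 6.81 to 7.64 in tec1 and 7.40 to 7.63 in cup9, and departed by -1.54 ± 0.38 (adjusted p = 0.0163, limma). MRPL51 departed by -1.12 and MRPS28 by -1.05. When the libraries labelled tec1 array 1 and cup9 array 4 were left out, 1 departure was called. The count was 7 without tec1-cup9 array 2, 0 without tec1-cup9 array 1 or 3 or filamentous array 2, and 1 without tec1 array 1 or 2, cup9 array 4 or filamentous array 1. In tec1-sok2, MRPL51 was called (-1.40 ± 0.33, adjusted p = 0.0454, limma, 0.342% of all genes lower); it read 7.47, 7.18 and 6.35 there against 7.34 to 8.12 in sok2 and 7.57 to 8.04 in tec1. That call was lost when the same libraries were left out and without any 1 of 10 of the 14 arrays involved, and without tec1-sok2 array 1 there were 10 calls. The other 9 doubles gave 0 departures by limma, with between 0 and 14 members at an unadjusted p under 0.05. Over all genes the share called in either direction was 14.3% in sfl1-yap6, 0.899% in sok2-yap6, 0.827% in cup9-sok2, 0.108% in cup9-sfl1, 0.0719% in sok2-skn7, 0.0539% in sfl1-sok2 and 0.036% in tec1-sfl1. It was 0% in tec1-skn7 and cup9-skn7. The 14 members were in cup9-sok2, where the median departure was -0.40 and MRPS16 (-1.29) had the largest.

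In SC medium the deposited values are intensities, many of them listed at 1. Changes are differences of log2 intensity after scaling each array to the same median. With 2 mM cAMP, 11 of 42 members fell against 0 mM (26.2%, against 7.54% of all genes) and 0 rose (12.1% of all genes). The median change was -1.18, against 0.13 over all genes, and both 0 mM arrays lay above both 2 mM arrays for 40 of the 42 members (32.4% of all genes).

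MRPL16, the large-subunit protein near the peptidyl transferase centre, had intensities of 302 and 272 at 0 mM, 189 at 0.5 mM, 116 at 1 mM and 81 and 82 at 2 mM. The change was -1.81 ± 0.30 (adjusted p = 0.00109, limma). MRPL49 went from 170 and 139 at 0 mM over 89 and 50 to 62 and 19 at 2 mM, a change of -2.16 ± 0.44 (adjusted p = 0.00419, limma). MRPS12 went from 442 and 460 over 284 and 138 to 133 and 117 (-1.85 ± 0.51, adjusted p = 0.0238, limma). Each of these genes was lower on every array with cAMP than on both arrays without. MRPL9 (-1.83), MRPS35 (mS45, -1.71), MRPL23, MRPL39, MRPS18, MRPS28, MRPS9 and MRPL35 were also called lower, and MRPL4 (uL29m, 0.12) was the single member with a positive change. All 9 small-subunit genes had negative changes, and 5 of them were called.

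The median difference from 0 mM was -0.55 at 0.5 mM, -1.19 at 1 mM and -1.18 at 2 mM. The 1 mM array lay below both 0 mM arrays for 41 members. It lay above both 2 mM arrays for 18 members and below both for 16. These are placements of a single array, and the shares of all genes are not given for them. Within strain SR957, between 0.5 and 2 mM, 37 of 42 members were lower at 2 mM with a median difference of -0.59 (0.12 over all genes). The 0.5 mM group is 1 array, whose spread limma takes from the other groups, so this comparison has no replicate check on that side. None of these differences was called (limma; 1.87% of all genes in either direction), and 8 members had an unadjusted p under 0.05. The count against 0 mM was 3 without 0 mM array 1 or 2 or 2 mM array 1, 4 without 2 mM array 2, and 9 without ras2a22 array 2. It was 31 when these groups alone were fitted, where the share of all genes is not given.

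**Figure D5:**
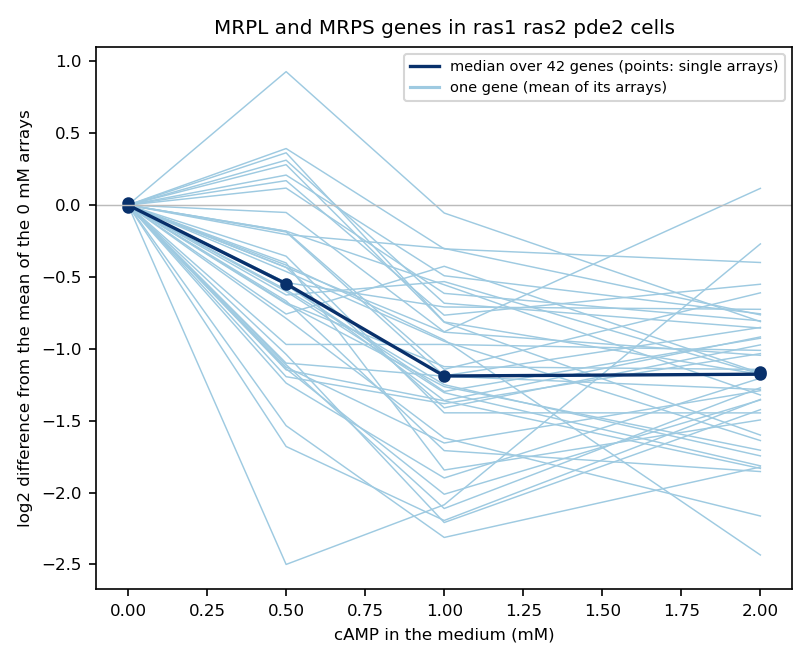
Log2 intensity of each MRPL and MRPS gene in ras1 ras2 pde2 cells, relative to its mean on the 0 mM arrays, against the cAMP concentration in mM (thin lines), with the median over the 42 genes on each array as points and a thick line through the medians. The median reaches -1.19 at 1 mM and stays there at 2 mM. The 0 mM cells are another strain number than the rest.

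Lists of other genes were counted in the same comparison, where 12.1% of all genes rose and 7.54% fell. Of 132 cytosolic ribosomal protein genes measured, 110 rose and 0 fell (median 1.33), and 21 of 30 ribosome biogenesis genes rose (median 2.63), led by UTP15 (3.73). Of 34 respiratory chain genes 26 fell and 1 rose (median -2.05), with SDH2 at -4.62 and CYC1 as the rise (1.87). Of 30 other mitochondrial ribosomal protein genes 6 fell (median -1.12), with RSM27 (-1.8), RSM19 (-1.55) and RSM28 (-1.43) the largest. TUF1 (-1.64), MSE1, a tRNA synthetase gene (-2.24), and the translational activators ATP22 (-1.89), MSS51 (-1.87) and CBS1 (-1.71) fell too.

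Few calls were made for the Ras mutants. Against the SC wild type, 0 members were called in ira1 (0.234% of all genes in either direction), ira1RA (0.0719%), ras2v19 (0.144%) and ras2a22 (8%), by limma, with 7, 14, 6 and 3 members at an unadjusted p under 0.05. In ira2 1 member was called, MRPL38, the uL14m protein at the subunit interface (2.38% of members, against 1.92% of all genes falling). MRPL38 was listed at 1 on both ira2 arrays and at 13, 49, 143 and 87 on the wild-type arrays, so no fold is given (adjusted p = 0.0494, limma). It was also listed at 1 on ira1RA array 2 and ras2v19 array 2, and without ras2a22 array 2 the call was lost (adjusted p = 0.077, limma). In ira2 0 members were called (limma) without ira2 array 1 or wild-type array 2, 3 or 4, and 4 without ira2 array 2 or wild-type array 1. Without ras2v19 array 1 a single array of that strain is left, on which 6 members were listed at 1, so calls in that fit are not read. The direct comparisons of ira1RA with ira1 and of ras2v19 with ras2a22 gave 0 calls (limma; 0.126% and 6.62% of all genes in either direction), with 1 and 5 members at an unadjusted p under 0.05.

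The medians were negative in most of these strains: -0.52 in ira1, -0.67 in ira1RA, -1.0 in ira2, -0.39 in ras2v19 and 0.00 in ras2a22, against -0.10, -0.06, -0.18, 0.01 and -0.03 over all genes. They rest on which wild-type arrays serve as the reference. The common level of the members was -0.19 and 0.06 on wild-type arrays 1 and 2 and 0.80 and 0.71 on arrays 3 and 4. Without arrays 1 and 2, 8 members fell in ira1, 8 in ira1RA, 15 in ira2, 3 in ras2v19 and 1 in ras2a22. Without arrays 3 and 4, 0 were called in each (limma). The shares of all genes called with these subsets are not given, so the counts cannot be read as particular to the members. MRPL36 (bL31m) had intensities of 70 and 80 on wild-type arrays 1 and 2 and of 187 and 172 on arrays 3 and 4, while both ira1 arrays read 49 and 29 and both ira2 arrays 53.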

How the data were processed

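RNA was measured on 70 Affymetrix arrays for the 10 h colonies and on 20 arrays of another design for cells in SC medium. Per the submitters' processing notes, the deposited colony values are log2 levels from RMA. The deposited SC values are linear intensities, in whole numbers with many at 1 (6.77% to 25.6% per array); the sources used here do not give how they were scaled. Probe sets were named through the platform annotation. Among colonies, 5668 of 6739 probe sets had 1 gene, 166 several and 905 none, which left 5562 genes. In SC medium, 5595 of 6178 had 1 gene, 0 several and 583 none, which left 5560 genes. A gene on several probe sets took the one with the highest mean, and each member was on 1. SC intensities were scaled to equal array medians, floored at the 10th percentile (an intensity of 0.993) and put on log2.

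Each table was fitted with limma 3.58.1 in R 4.3.3 over all its groups, and p-values were adjusted by Benjamini-Hochberg over all genes with a threshold of 0.05 (two-sided tests). The fit was tested on simulated data. The members, gene lists and tests were chosen with earlier results of these data known. Named genes were the called members with the largest change, at most 8 per direction for the growth form, 5 for single deletions and SC comparisons and 3 for a double deletion or departure, and the 2 largest where none was called. In SC medium only members with no value at 1 in the groups compared were ranked. Other genes named were chosen after their values were seen. The departure of cup9-yap6 was not computed, since CUP9 mRNA was present there. Replicate numbers were tested for pairing by correlating deviations from group means: between the forms all 3 pairs gave r from 0.11 to 0.25 over genes, and the blocked count is therefore given there. Alternatives were a floor or a filter on mean level at the 25th percentile, quantile normalization, means of probe sets, fits of only the groups compared, a replicate block, a slope over cAMP and leaving out arrays. Contrasts within deletion strains, subsets of the SC wild-type arrays, 2 against 0.5 mM cAMP and leaving out ras2a22 array 2 were added after seeing the data.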

Additional observations from a re-analysis of the deposited data

Results flagged for a closer look

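Among 69 level sets and 4 array medians in groups of 4 to 10 arrays, 5 had 1 array far from the others by Dixon's criterion, which chance meets in about 1 of 20 groups. MRPL15 read 4.90 on yeast-form array 1 against 5.13 to 5.22 on the others. On tec1 array 3, MRPL25 read 7.59 against 7.86 to 7.97 and MRPS9 7.71 against 8.38 to 8.42. MRPL38 read 7.48 on cup9 array 5 against 7.81 to 7.88. MRPS35 read 6.82 on the log2 scale on SC wild-type array 2 against 6.12 on the other 3 arrays.

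The departures from the sum of the single deletions that were called and named are effects that differ between strains by a test of the difference. They were MRPL24 (-1.54), MRPL51 (-1.12) and MRPS28 (-1.05) in tec1-cup9, MRPL51 (-1.40) in tec1-sok2, and MRPL31 (1.49), MRPL15 (1.31) and MRPL11 (1.20) in sfl1-skn7.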

How the results depend on the processing

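Of 1622 values for named genes under the alternatives, 1395 kept their direction and side of the threshold, 211 lost the call, 8 gained it and 8 changed sign. All 8 were in contrasts within deletion strains, which are different comparisons and no change of processing. SKN7 loss in sfl1 cells gave 0.16 for MRPL11, 0.27 for MRPL15, 0.030 for MRPL17 and 0.20 for MRPL31. SFL1 loss in skn7 cells gave 0.22 for MRPL15, 0.39 for MRPL31 and 0.12 for MRPL49, and YAP6 loss in sfl1 cells 0.023 for MRPL31. None of the 8 was called there by limma, and the cause was not tested. Medians changed sign as well: of 592 medians under the alternatives, 34 had the other sign.

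Counts of called members moved by over 1.5 times as follows. When only the groups compared were fitted, the counts were 17 in cup9-skn7, 13 in cup9-sok2, 10 in cup9-yap6, 2 in sok2, 20 in sok2-skn7, 24 in yap6 and 31 for 2 against 0 mM cAMP, 5 for the cup9-sok2 departure, and 0 for ira2, for tec1-cup9, for tec1-sok2 and for the departures of both. With a replicate block they were 21 in cup9-skn7, 15 in cup9-sok2, 10 in cup9-yap6, 5 in sok2, 23 in sok2-skn7, 2 in sok2-yap6, 22 in yap6 and 26 between the forms, 6 and 11 for the departures of cup9-sok2 and sfl1-skn7, and 0 for ira2, tec1-cup9, tec1-sok2 and the departures of both. Outside the 2 forms, the numbers do not pair the arrays by the correlation check. The block moved no other count by over 1.5 times. The filter at the 25th percentile gave 3 in ira2 and 1 in ras2a22, the higher floor 2 in each, and quantile normalization 1 for the sfl1-yap6 departure. Without tec1 array 1 and cup9 array 4, the departures gave 1 in tec1-cup9 and 0 in tec1-sok2. Without ras2a22 array 2, ira2 gave 0. Without SC wild-type arrays 1 and 2, the counts were 8 in ira1, 8 in ira1RA, 15 in ira2, 3 in ras2v19 and 1 in ras2a22, and without arrays 3 and 4, 0 in ira2. The shares of all genes are not given for the counts in this paragraph.

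Other contrasts for the same loss or agent are different comparisons and no change of processing. SFL1 loss gave 1 in skn7 cells and 17 in sok2 cells, against 27 from the wild type. SKN7 loss gave 0 in sfl1 and in sok2 cells (limma), against 22, and YAP6 loss 6 in sfl1 and 0 in sok2 cells, against 13. Between 0.5 mM cAMP, a single array, and 2 mM 0 were called (limma; 8 at an unadjusted p under 0.05).

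Leaving out 1 array at a time, the count ran from 8 to 17 between the forms, 10 to 30 in sfl1, 9 to 24 in skn7, 2 to 10 in yap6, 0 to 3 in tec1-cup9, 2 to 10 in tec1-sfl1, 0 to 17 in tec1-sok2, 17 to 20 in tec1-skn7, 11 to 28 in cup9-sfl1, 0 to 2 in cup9-sok2 and 0 to 11 in cup9-skn7. It ran from 5 to 24 in sfl1-sok2, 6 to 21 in sfl1-skn7, 0 to 2 in sok2-skn7, 2 to 4 in cup9-yap6, 32 to 35 in sfl1-yap6 and 2 to 5 in sok2-yap6. For departures it ran from 0 to 7 in tec1-cup9, 0 to 10 in tec1-sok2, 0 to 19 in sfl1-skn7, and 0 to 1 in cup9-sok2 and sfl1-yap6. In SC medium it ran from 3 to 4 for 2 against 0 mM cAMP, 0 to 1 in ira1 and ira1RA, 0 to 4 in ira2 and ras2v19, and 0 to 3 for ras2v19 against ras2a22. Where this left 1 array in a group, its spread was taken from the rest of the table. The shares of all genes are not given for the counts with arrays left out.

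Most groups hold 2 or 3 arrays, and that number limits the precision. Quantile normalization moved the median over all genes in ira2 from -0.18 to -0.03 and that of the members from -1.0 to -0.91. Values at 1 in SC medium have no order among themselves. RMA levels and the SC intensities carry no counts, so no depth can be given.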
